A study of Mus musculus with 10 samples.

Results

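IGHV7-1 and IGHV7-3 are heavy chain V genes of the mouse IGHV7 family, long known as S107. The rearranged *Igh* tables of 4 libraries of peritoneal cavity B-1a cells were searched for clonotypes whose V gene entry named exactly 1 of these genes. Each row of a table is 1 clonotype, a distinct joined V, D and J gene together with the amino acids of the CDR3, the loop at the junction, and carries the number of its reads. The search gave 3830 clonotypes of 195529 in all, 16 on IGHV7-1 and 3814 on IGHV7-3, and these are 2 of 141 V genes that the tables name alone. A further 36 clonotypes listed one of the pair beside another V gene and were left out.

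All cells were sorted from C57BL/6 mice aged 6 to 8 weeks, the B-1a cells as B220lo CD5+ cells. The 2 genotypes were wild type and *Igll1* knockout, written Igll1-/-, with 2 *Igh* libraries each. *Igll1* encodes lambda5, a part of the surrogate light chain, so B cells of the knockout form no pre-B cell receptor, the checkpoint at which a new heavy chain is tested before a light chain exists. The labels name no other allele or agent in any group. The *Igk* locus was sequenced in 6 further libraries, 2 for each B-1a genotype and 2 for peritoneal B-2 cells of wild-type mice, sorted as B220+ cells. The labels do not say how many mice gave a library, so p-values measure the spread between these libraries, which may be technical.

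S107 genes are known from antibodies to phosphorylcholine, a head group found on pneumococci, on other bacteria and on oxidised lipids of dying cells. In the T15 antibody, the classical natural antibody of this kind, IGHV7-1 is joined to IGHD1-1 (DFL16.1) and IGHJ1, and pairs with a kappa chain that uses IGKV7-33 (Vk22). Such antibodies come largely from B-1 cells and rearrange with few added nucleotides, so that the same CDR3 arises in many mice. IGHV7-3 belongs to the same family but is not the T15 gene.

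The CDR3 sequences that the results turn on are shown first, because they carry the identity of the clonotypes. The CDR3 known from T15 comes first, then the IGHV7-3 rearrangement that differs from it at 1 residue, then the largest or most shared IGHV7-3 clonotypes. They are amino acid sequences as deposited, from the residue after the conserved cysteine to the one before the conserved tryptophan.
T15 CDR3 on IGHV7-1, IGHD1-1 and IGHJ1: ARDYYGSSYWYFDV
IGHV7-3, IGHD1-1 and IGHJ1: ARYYYGSSYWYFDV
IGHV7-3, IGHD2-3 and IGHJ1: ARYGYYYWYFDV
IGHV7-3, IGHD1-1 and IGHJ4: ARYYYGSSYAMDY
IGHV7-3, IGHD3-2 and IGHJ3: AQGWFAY
IGHV7-3, IGHD1-1 and IGHJ4, second example: ARWEVTTRAMDY

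The *Igh* libraries held 32386 to 58205 clonotypes from 180593 to 285517 reads, and clonotypes with a single read made up 68.0% to 73.4%. IGHV12-3 and IGHV11-2, whose products bind phosphatidylcholine and mark B-1a cells, made up 4.32% to 5.09% and 0.821% to 4.79% of clonotypes. IGHV11-2 lay at 2.99% and 4.79% in wild-type against 0.821% and 0.960% in Igll1-/- libraries, and in wild-type cells it had the highest IGHJ1 share of all V genes compared, which bears on the IGHJ1 comparison given later. Reads carry no molecular barcode, so intervals and limits cover counting error only. Clonotype shares also depend on the primers, which bind in framework 3 of the V gene.

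IGHV7-1, the T15 gene, was close to absent from these B-1a libraries. It had 7 clonotypes in wild-type replicate 1 and 1 in wild-type replicate 2. It had 2 in Igll1-/- replicate 1 and 6 in Igll1-/- replicate 2. As shares of all clonotypes these are 0.0127% (95% Wilson interval 0.0062 to 0.0262), 0.0020% (0.00035 to 0.0114), 0.0062% (0.0017 to 0.0225) and 0.0103% (0.0047 to 0.0225). The genotypes overlapped, at means of 0.0082% ± 0.0029 for Igll1-/- and 0.0074% ± 0.0076 for wild-type cells (SD, n = 2 each; two-sided exact permutation test, p = 1.0). With 2 libraries against 2 this test cannot give a p below 0.333. The gene ranked 95 to 112 among the 114 to 132 V genes of a library and fell below the minimum of 10 clonotypes in 2 libraries that the fit across V genes required.

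The 16 IGHV7-1 clonotypes held 21 reads in all, and 14 of them rested on 1 read. Products begin at the framework 3 primers, so identity to the germline covers only the end of the V segment. No IGHV7-1 clonotype matched its germline fully over that stretch. The identity ran from 85.56% to 96.67%, and 9 stood at 95.56%. Of the 16, 15 were productive, that is in frame without a stop codon. IGHJ1 was used by 7 of them, IGHJ2 by 4, IGHJ3 by 3 and IGHJ4 by 2. The CDR3 of 12 also stood on another V gene of the same library, and for 7 of these that other gene held at least 10 times the reads. The most extreme case was an IGHD1-1 and IGHJ4 clonotype of Igll1-/- replicate 2 with 1 read on IGHV7-1 and 2998 on IGHV9-3. For 15 of the 16, the allele was listed as 1 of 3 of IGHV7-1. IMGT marks the first of these as a pseudogene and the others as functional. The remaining 1, a clonotype of Igll1-/- replicate 2 with 1 read, also listed IGHV7-3 alleles. Its CDR3 had 20 reads on IGHV7-3 in that library.

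The rearrangement of the T15 antibody itself, a productive clonotype with IGHV7-1, IGHD1-1 and IGHJ1, was found once. It had 5 reads in wild-type replicate 1, an identity of 96.67%, and exactly the T15 CDR3 printed above. It was the IGHV7-1 clonotype with the most reads. The other 3 libraries held 0, which allows shares of up to 0.00602% in wild-type replicate 2, 0.00926% in Igll1-/- replicate 1 and 0.00515% in Igll1-/- replicate 2. The same CDR3 was present in all 4 libraries on other V genes, most of all on IGHV5-4, with 28, 4, 6 and 74 reads in wild-type replicates 1 and 2 and Igll1-/- replicates 1 and 2. The CDR3 of T15 was thus present in both genotypes, but mostly on other V genes.

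IGHV7-3 was by contrast among the 16 most frequent V genes in every library. It had 1021 and 944 wild-type and 658 and 1191 Igll1-/- clonotypes. As shares of all clonotypes these are 1.85% (Wilson 1.74 to 1.97) and 1.90% (1.78 to 2.02) against 2.03% (1.88 to 2.19) and 2.05% (1.93 to 2.16). Both Igll1-/- libraries lay above both wild-type libraries, with means of 2.04% ± 0.010 and 1.87% ± 0.031 (SD, n = 2 each). Such a separation upward was seen in 16 of 91 V genes tested, or 17.6%. The log2 fold change was 0.12 with a standard error of 0.23 (edgeR quasi-likelihood test, adjusted p = 0.814), so the difference did not pass the test, and it took the other sign, at −0.040, once near-identical clonotypes were merged. Of the 91 V genes, 0 (0.0%) were called at an adjusted p under 0.05 and 8 had an unadjusted p under 0.05.

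By reads the spread between libraries was wider. IGHV7-3 took 2033 and 2453 reads in the wild-type libraries, 0.941% and 1.15% of all reads, and 2285 and 5570 in the Igll1-/- libraries, 1.27% and 1.95%. Igll1-/- replicate 2 stood highest, and the groups did not overlap, as for 20.9% of the V genes in that direction. The log2 fold change by reads was 0.62 (edgeR adjusted p = 0.611).

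The other genes of the family were rare too. IGHV7-4 had 87 and 55 clonotypes in wild-type against 12 and 34 in Igll1-/- libraries, or 0.158% and 0.110% against 0.0371% and 0.0584%. Both Igll1-/- libraries lay below both wild-type libraries, as did 19.8% of the 91 V genes, and the log2 difference, −1.47 with a standard error of 0.54, did not pass the test (edgeR adjusted p = 0.412). IGHV7-2 had 1, 3, 1 and 4 clonotypes. The V genes nearest to IGHV7-3 in their level over the 4 libraries, of 86 compared, were IGHV1-7, IGHV1-82 and IGHV1-18, whose log2 shares differed from it by a root mean square of 0.21, 0.31 and 0.34. In the RefSeq annotation of GRCm38.p6, *Ighv7-1* lies between *Ighv5-19* and *Ighv7-2*, and *Ighv7-3* between *Ighv9-3* and *Ighv15-1*, and both are annotated as V segment pseudogenes. The tables list all 3814 IGHV7-3 clonotypes under alleles that IMGT marks as functional.

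**Figure D1:**
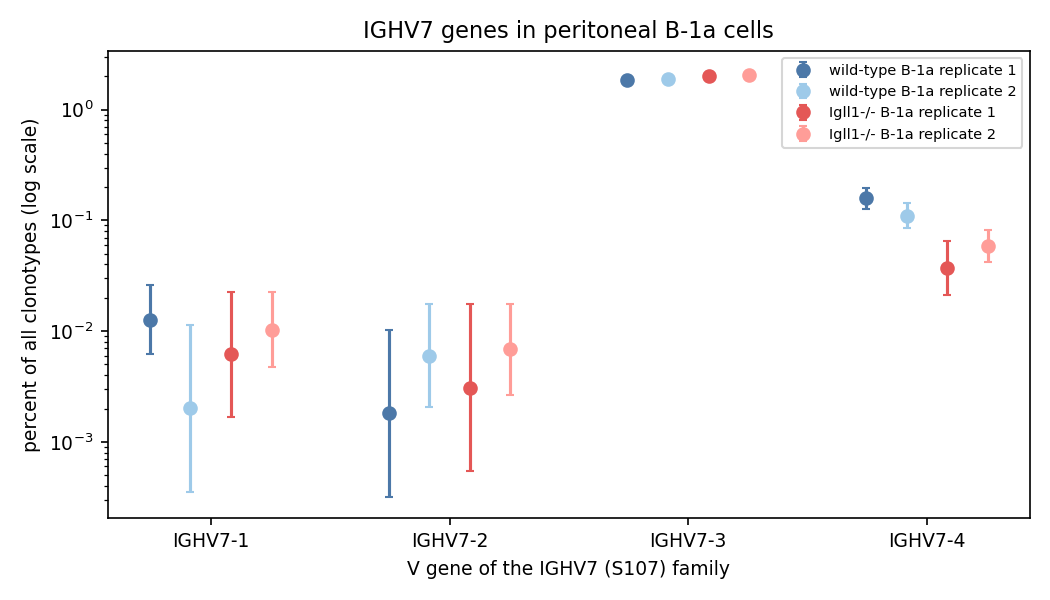
Share of all clonotypes, on a log axis, for each IGHV7 gene in each of the 4 *Igh* libraries, with 95% Wilson intervals that cover counting error only. IGHV7-3 sits at 1.85% to 2.05% in every library, while IGHV7-1 and IGHV7-2 lie near 0.01% or below with wide intervals.

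IGHV7-3 rearrangements were almost all productive. The productive share was 96.1% and 95.6% in wild-type against 93.3% and 95.5% in Igll1-/- libraries, beside 92.3%, 93.0%, 94.0% and 94.0% over all clonotypes of the same libraries. In 3 of 4 libraries, all but Igll1-/- replicate 1, the gene lay above its library. Set against its library, the log2 odds of a productive clonotype differed by 0.58 with a standard error of 0.19 (edgeR adjusted p = 0.0548), just outside the threshold that 23.1% of 91 V genes passed. With 1 library left out in turn the value ran from 0.42, without wild-type replicate 1, to 0.78, without Igll1-/- replicate 1. The difference between genotypes was −0.66 (edgeR adjusted p = 0.500), in a comparison where 1.1% of V genes were called. Both Igll1-/- libraries lay below both wild-type libraries, as for 11.4% of 79 V genes.

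Few IGHV7-3 clonotypes matched the germline fully over the amplified end of the V segment, although those that did held many reads. The median identity was 97.78% in each of the 4 libraries, beside 99.02% over all V genes. Full identity was reached by 3.43% and 5.72% of IGHV7-3 clonotypes in wild-type against 8.36% and 6.63% in Igll1-/- libraries, beside 45.3%, 46.5%, 44.0% and 39.6% over all V genes. The genotypes did not overlap in this share, as for 11.4% of 79 V genes in that direction. These few clonotypes carried 16.0% and 46.4% of the gene's reads in wild-type against 51.6% and 62.7% in Igll1-/- libraries. Over all V genes, fully matching clonotypes carried 69.9% and 72.8% of reads in wild-type against 67.0% and 61.3% in Igll1-/- libraries. In Igll1-/- replicate 2, 1 fully matching clonotype held 29.8% of the IGHV7-3 reads. A fully matching IGHV7-3 clonotype had on average 9.29, 21.1, 21.5 and 44.2 reads in the 4 libraries, and one below full identity had 1.73, 1.48, 1.83 and 1.87. Mismatched rearrangements of this gene were thus mostly seen with 1 or a few reads, and whether they come from sequencing or primer error was not tested.

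IGHJ1, the J gene of T15, was the segment in which IGHV7-3 differed most between genotypes. Of the productive IGHV7-3 clonotypes with 1 J gene, 17.4% (Wilson 15.2 to 19.9) and 16.4% (14.2 to 19.0) used IGHJ1 in the wild-type libraries. In the Igll1-/- libraries the share was 26.5% (23.2 to 30.2) and 28.9% (26.4 to 31.6). Both Igll1-/- libraries lay well above both wild-type libraries, with means of 27.7% ± 1.69 and 16.9% ± 0.711 (SD, n = 2 each; two-sided exact permutation test, p = 0.333, the smallest possible). Over 77 V genes with at least 10 such clonotypes in each library, 3 (3.9%) were separated in this direction, and the rise of IGHV7-3 by 10.8 percentage points was the largest of the 77. This count and this order were taken before any merging of near-identical clonotypes. The gene ranked 5 of 77 in IGHJ1 share in Igll1-/- and 14 in wild-type cells.

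Over all V genes the share went the other way, at 13.5% and 19.5% in wild-type against 13.0% and 11.0% in Igll1-/- libraries. Relative to its own library, IGHV7-3 therefore gained IGHJ1 by a log2 odds ratio of 1.44 with a standard error of 0.33 (edgeR adjusted p = 0.0118). Of 91 V genes tested, 2 were called (2.2%), IGHV7-3 upward and IGHV11-2 downward. That library total includes IGHV11-2, which used IGHJ1 in 76.5% and 73.1% of its clonotypes in wild-type against 34.7% and 33.1% in Igll1-/- libraries. Without IGHV11-2 and IGHV12-3 the library shares were 9.80% and 14.5% against 11.1% and 10.1%, the log2 ratio of IGHV7-3 fell to 1.11, and the call was lost (edgeR adjusted p = 0.399). The plain change within IGHV7-3, not set against the library, was a log2 odds ratio of 0.91 (edgeR adjusted p = 0.928). The call was also lost without wild-type replicate 1 (1.81, edgeR adjusted p = 0.971) or wild-type replicate 2 (1.07, edgeR adjusted p = 0.961), so the rise kept its direction but the test depended on the reference and on each wild-type library. With near-identical clonotypes merged, that is with each folded into one of at least 10 times its reads that differs at no more than 1 residue, the IGHJ1 share was 17.3% and 16.7% in wild-type against 22.8% and 22.3% in Igll1-/- libraries, and the log2 ratio was 0.87 (edgeR adjusted p = 0.00237).

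By reads the IGHJ1 share of IGHV7-3 was 16.6% and 18.3% in wild-type against 41.1% and 53.9% in Igll1-/- libraries. Over all V genes the read share was 38.6% and 45.5% in wild-type against 28.9% and 11.0% in Igll1-/- libraries. IGHV7-3 thus lay below its library in wild-type and above it in Igll1-/- cells. The library totals include IGHV11-2, which used IGHJ1 in most of its wild-type clonotypes. That gene held 20.6% and 24.4% of all reads in wild-type against 0.492% and 0.703% in Igll1-/- libraries. Read shares of IGHJ1 without IGHV11-2 were not counted. In Igll1-/- replicate 2, 1 IGHJ1 clonotype held 29.8% of the gene's reads. The log2 odds ratio between genotypes, set against the library, was 3.79 by reads with no call (edgeR adjusted p = 0.288). It takes in both the rise in IGHV7-3 and the fall over all V genes. With at least 10 reads per clonotype it was 3.00 (edgeR adjusted p = 0.00843). Averaged over both genotypes, the log2 ratio of IGHV7-3 to its library was 0.80 with a standard error of 0.30 (edgeR adjusted p = 0.0603), where 34 of 91 V genes were called (37.4%), 5 of them upward. Unproductive IGHV7-3 rearrangements, which are not selected through the receptor, numbered 40 to 54 in a library. Their IGHJ1 share was 5.0% (1.38 to 16.5) and 14.3% (6.72 to 27.8) in wild-type against 15.9% (7.93 to 29.4) and 33.3% (22.2 to 46.6) in Igll1-/- libraries. These intervals are wide and neighbouring ones overlap, while those of wild-type replicate 1 and Igll1-/- replicate 2 do not. Set against the library, the log2 odds ratio between genotypes among unproductive clonotypes was 1.83 with no call (edgeR adjusted p = 0.417). Over all V genes, the IGHJ1 share of unproductive clonotypes was 14.5% and 17.3% in wild-type against 14.9% and 13.5% in Igll1-/- libraries. Whether some unproductive IGHV7-3 rows are altered copies of a large productive clonotype was not tested.

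**Figure D2:**
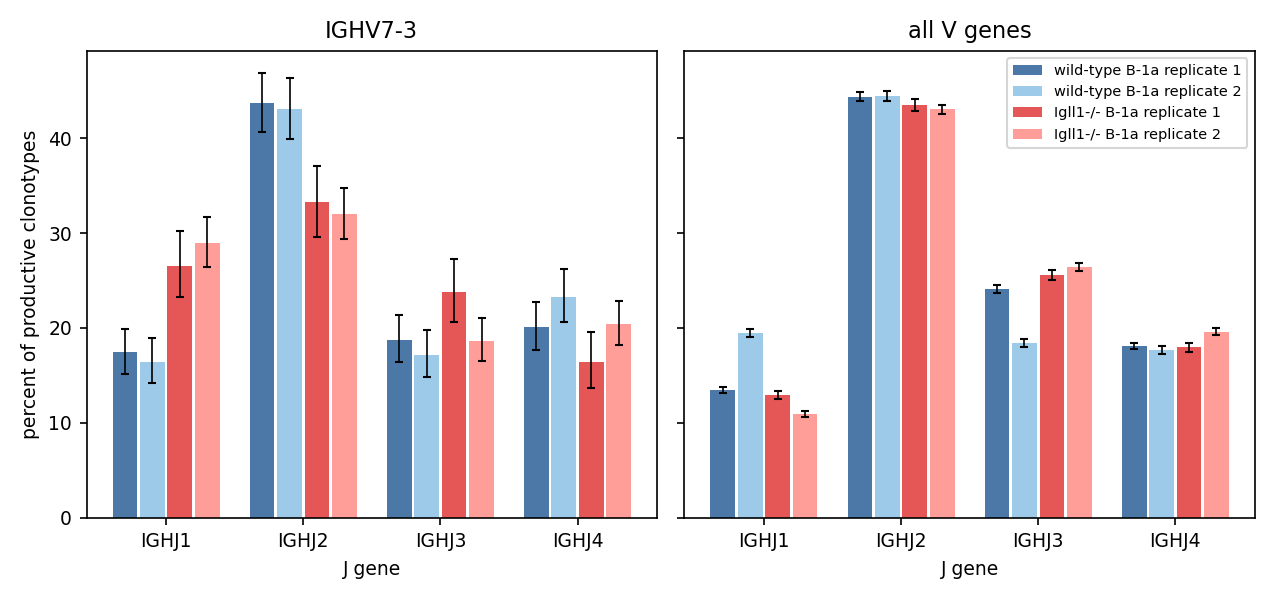
Share of productive clonotypes that use each IGHJ gene, for IGHV7-3 on the left and for all V genes on the right, in each of the 4 *Igh* libraries. Bars start at 0 and the error bars are 95% Wilson intervals. IGHV7-3 shows IGHJ1 at 26.5% and 28.9% in Igll1-/- against 17.4% and 16.4% in wild-type libraries, with IGHJ2 lower.

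IGHJ2 was the J gene that IGHV7-3 used most in both genotypes. It made up 43.7% and 43.1% of productive IGHV7-3 clonotypes in wild-type against 33.2% and 32.0% in Igll1-/- libraries. Both Igll1-/- libraries lay below both wild-type libraries, as for 42.9% of 77 V genes, and the log2 difference of −0.60 (standard error 0.14) relative to the library did not pass the test (edgeR adjusted p = 0.0974, 1.1% of V genes called). IGHJ3 (18.8% and 17.2% against 23.8% and 18.6%) and IGHJ4 (20.1% and 23.3% against 16.4% and 20.4%) overlapped between genotypes. Counted as V-J combinations over all clonotypes, the log2 difference of IGHV7-3 with IGHJ1 was 0.85 with a standard error of 0.39 (edgeR adjusted p = 0.558), where 1 of 272 combinations was called (0.368%). The V genes nearest to IGHV7-3 in mean IGHJ profile, of 76 compared, were IGHV3-6, IGHV3-3 and its family member IGHV7-4, with summed absolute differences of 4.69, 13.5 and 14.6 percentage points.

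**Figure D3:**
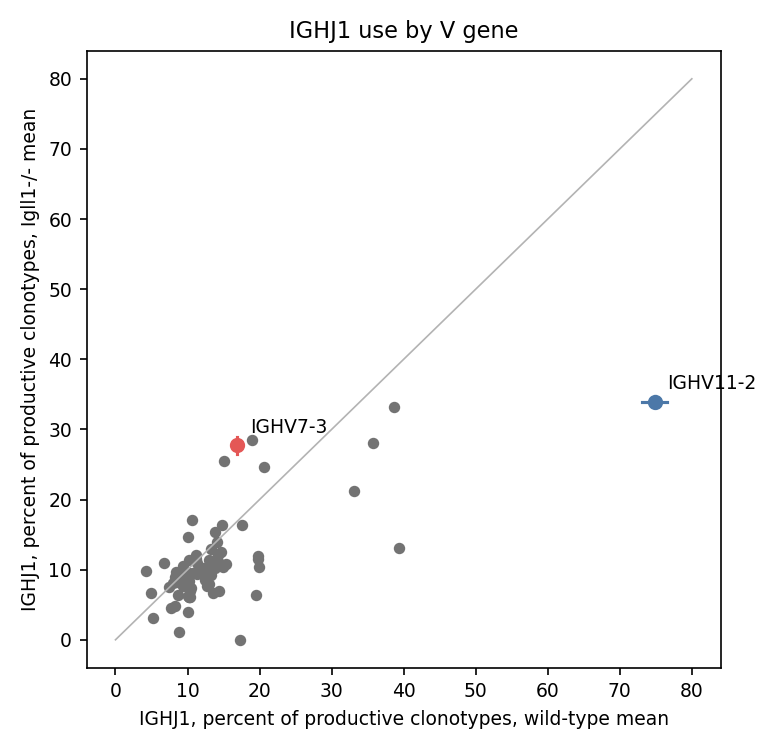
Mean IGHJ1 share of productive clonotypes in the 2 Igll1-/- libraries against that in the 2 wild-type libraries, 1 point for each of 77 V genes, with the line of equality. Crossed lines on the coloured points join the 2 libraries of a genotype. IGHV7-3 lies above the line, at 27.7% against 16.9%, and IGHV11-2 far below it.

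IGHD1-1, the D gene of T15, made up a share of IGHV7-3 clonotypes close to that over all V genes. Its share of productive IGHV7-3 clonotypes with 1 D gene was 29.9% and 29.7% in wild-type against 34.0% and 32.0% in Igll1-/- libraries, beside 30.4%, 30.2%, 31.7% and 33.1% over all V genes. Set against its library the log2 ratio was −0.0027 with a standard error of 0.11 (edgeR adjusted p = 0.999, 13.1% of 84 V genes called). Between genotypes it differed by 0.06 with a standard error of 0.20 (edgeR adjusted p = 0.998, 1.19% called). The T15-like combination of IGHD1-1 with IGHJ1 was found in 56 and 57 productive IGHV7-3 clonotypes in wild-type against 46 and 83 in Igll1-/- libraries, or 6.11% and 6.88% against 8.32% and 7.74%. The IGHV7-3 clonotype whose CDR3 differs from that of T15 at 1 residue was present in all 4 libraries at 7, 5, 2 and 2 reads.

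Other D genes of IGHV7-3 lay apart between the genotypes without passing the test. IGHD2-3 made up 8.08% and 8.44% of productive IGHV7-3 clonotypes in wild-type against 11.9% and 14.7% in Igll1-/- libraries, a separation upward that 22.4% of 76 V genes showed. Relative to the library the difference was 0.78 on the log2 scale with a standard error of 0.23 (edgeR adjusted p = 0.0670). IGHD4-1 went from 15.4% and 15.9% to 11.0% and 8.11%, which 40.8% of V genes matched in direction, with a log2 difference of −0.52 (edgeR adjusted p = 0.932). Of the 84 V genes tested for each of these D genes, 0 (0.0%) were called, and 7 for IGHD2-3 and 4 for IGHD4-1 had an unadjusted p under 0.05.

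In pairs of segments, IGHD2-3 with IGHJ1 was found in 13 and 7 IGHV7-3 clonotypes in wild-type against 25 and 95 in Igll1-/- libraries, or 1.42% and 0.845% against 4.52% and 8.85%. Both Igll1-/- libraries lay above both wild-type libraries, as for 10.5% of 76 V genes. With near-identical clonotypes merged, the counts were 12 and 7 in wild-type against 12 and 22 in Igll1-/- libraries, or 1.34% and 0.974% against 2.60% and 2.74%, so most of the 95 in Igll1-/- replicate 2 lay within 1 residue of a far larger clonotype. IGHD4-1 with IGHJ2 went from 8.41% and 9.54% to 4.16% and 3.26%, a separation downward that 39.5% of V genes showed. These pairs were singled out after their values were seen and carry no test.

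The IGHD2-3 and IGHJ1 rearrangement whose CDR3 begins ARYGYY was the IGHV7-3 CDR3 with most reads in Igll1-/- replicate 2 and was present in every library. It had 10 and 2 reads in the wild-type libraries, 0.492% and 0.0815% of the gene's reads. In the Igll1-/- libraries it had 126 and 1727 reads, 5.51% and 31.0%. The library with most was Igll1-/- replicate 2, where the main row alone held 1660 reads at full germline identity, and the rest stood on further IGHV7-3 rows of that CDR3. The same CDR3 stood on 42 other V genes of that library with 291 reads in all, at most 33 on 1 gene, and on 6, 1 and 1 other V genes of the other 3 libraries.

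CDR3s of the same shape, starting ARY and ending YWYFDV, were counted too. The shape was taken from that clonotype after its reads were seen, so the counts are a description with no test. They numbered 36 and 23 clonotypes in wild-type against 38 and 74 in Igll1-/- libraries, or 3.67% and 2.55% against 6.19% and 6.51% of productive IGHV7-3 clonotypes. By reads they took 3.42% and 3.03% against 22.2% and 38.2%. The groups did not overlap in clonotypes, as for 14.3% of 77 V genes in that direction. Merged in the same way they numbered 35, 23, 25 and 37, or 3.65% and 2.95% against 5.05% and 4.32%. The ending is the germline IGHJ1 sequence, so this count and the IGHJ1 share are not independent.

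The other large IGHV7-3 clonotypes differed in reads between libraries. The IGHD1-1 and IGHJ4 CDR3 ending GSSYAMDY was the largest of wild-type replicate 1 and rank 3 of wild-type replicate 2, with 85, 73, 9 and 5 reads over the 4 libraries, all higher in wild-type cells. The short IGHJ3 CDR3 beginning AQG led Igll1-/- replicate 1 with 188 reads, against 9, 0 and 3 in wild-type replicates 1 and 2 and Igll1-/- replicate 2. The CDR3 beginning ARWEV had 5 and 3 reads in the wild-type replicates, 2 in Igll1-/- replicate 1 and 257 in Igll1-/- replicate 2. The largest clonotype of wild-type replicate 2, an IGHD1-1 and IGHJ4 rearrangement of 89 reads, was found at 1 read in Igll1-/- replicate 2 and not in the other two libraries. These sizes mix cell numbers with PCR amplification.

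Reads of IGHV7-3 were more concentrated in the Igll1-/- libraries. The largest clonotype held 4.13% and 3.63% of the gene's reads in wild-type against 7.96% and 29.8% in Igll1-/- libraries, and the 10 largest held 13.4% and 22.3% against 33.9% and 48.3%. The mean was 1.99 and 2.60 reads per clonotype against 3.47 and 4.68. Both measures separated the genotypes, but so they did in the same direction for 51.9% and 45.6% of 79 V genes, a share that makes it no result about IGHV7-3. Most clonotypes stayed at 1 read, 71.6% and 79.4% in wild-type against 74.3% and 68.6% in Igll1-/- libraries, and 22, 54, 45 and 61 reached 10 reads.

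**Figure D4:**
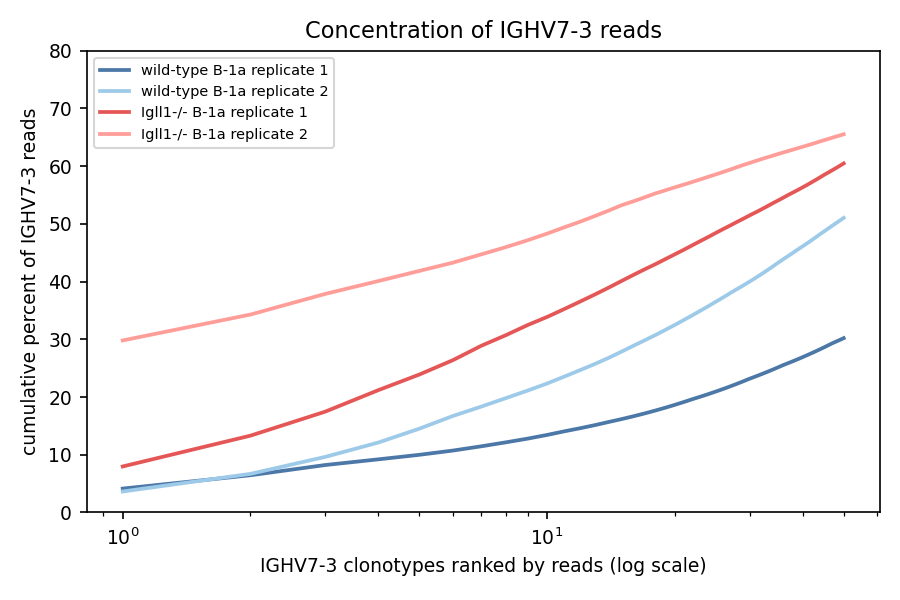
Cumulative percent of IGHV7-3 reads held by the 50 largest IGHV7-3 clonotypes, ranked by reads on a log axis, 1 line for each *Igh* library. The 10 largest hold 13.4% and 22.3% in wild-type against 33.9% and 48.3% in Igll1-/- libraries.

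Many IGHV7-3 CDR3s began in the same way. Of the productive ones 49.4% and 38.1% in wild-type against 46.1% and 41.1% in Igll1-/- libraries began with ARY, beside 5.38% to 6.39% over all V genes. A beginning of ARD, as in T15, was seen in 1.30% to 2.37% of IGHV7-3 clonotypes and in 7 of the 16 IGHV7-1 clonotypes. The mean length was 11.3 and 11.0 residues in wild-type against 11.3 and 11.3 in Igll1-/- libraries, beside 10.8, 10.6, 10.6 and 10.4 over all V genes. By J gene, IGHV7-3 CDR3s with IGHJ1 averaged 12.3 ± 0.046 residues in wild-type against 12.2 ± 0.13 in Igll1-/- cells, and those with IGHJ2 10.5 ± 0.082 and 10.6 ± 0.034 (SD, n = 2 each).

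Sharing between libraries was near that of other V genes. Of 2878 distinct productive IGHV7-3 CDR3s, 2424 were found in 1 library, 318 in 2, 95 in 3 and 41 in all 4, that is 84.2%, 11.0%, 3.30% and 1.42%, beside 85.3%, 10.3%, 3.26% and 1.21% over all V genes. The 41 held 24.9% of the gene's productive reads, beside 34.6% for the fully shared CDR3s over all V genes. The replicates of a genotype did not share more than libraries of different genotype. The wild-type pair shared 169, which is 17.5% and 19.4% of their CDR3s, and the Igll1-/- pair 114, 19.5% and 10.4%. The largest overlap was between wild-type replicate 1 and Igll1-/- replicate 2, with 216 CDR3s or 22.4% and 19.8%, and the smallest between wild-type replicate 2 and Igll1-/- replicate 1, with 78 or 8.98% and 13.3%.

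The 41 IGHV7-3 CDR3s found in every library mostly opened and ended alike. ARY opened 28 of them, 68.3% against 36.2% of those seen in 1 library. IGHJ2 ended 26, IGHJ1 6, IGHJ3 5 and IGHJ4 4, while IGHD1-1 was listed for 17 and a gene of the IGHD2 family for 15. At most 10 reads were found in any library for 31 of the 41. Samples were pooled for sequencing, and whether reads passed between libraries was not tested. After the ARYGYY rearrangement, the most abundant by summed share were the ARWEV, the GSSYAMDY and the ARYGTW rearrangements, the last at 4, 1, 87 and 3 reads.

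Some IGHV7-3 CDR3s were assigned to further V genes as well. Among IGHV7-3 clonotypes, 7.15% and 19.3% in wild-type against 13.2% and 20.7% in Igll1-/- libraries had a CDR3 with at least 10 times the reads on another V gene of the library, beside 8.30%, 21.9%, 16.2% and 23.5% over all V genes. Without them the log2 ratio of IGHJ1 use between genotypes was 1.53 (edgeR adjusted p = 0.00640).

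The light chain partner of T15, IGKV7-33, was lower in Igll1-/- B-1a cells. It had 76 and 78 clonotypes in wild-type B-1a, 16 and 7 in Igll1-/- B-1a and 54 and 47 in wild-type B-2 libraries. As shares of *Igk* clonotypes these are 1.05% (Wilson 0.840 to 1.31) and 1.12% (0.899 to 1.40), 0.281% (0.173 to 0.455) and 0.101% (0.0489 to 0.208), and 0.624% (0.479 to 0.813) and 0.546% (0.411 to 0.725). The values were highest in wild-type B-1a and lowest in Igll1-/- B-1a libraries, and the share of *Igk* V genes ordered this way was not counted. Against wild-type B-1a cells the log2 fold change was −2.53 with a standard error of 0.50 (edgeR adjusted p = 0.00537), where 8 of 84 *Igk* V genes were called downward (9.52%). The call was lost without wild-type B-1a replicate 1 (−2.57, edgeR adjusted p = 0.0568) or replicate 2 (−2.48, edgeR adjusted p = 0.0655), at log2 fold changes close to that with all libraries.

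Against wild-type B-2 cells the Igll1-/- B-1a value was −1.64 with a standard error of 0.51 (edgeR adjusted p = 0.0415), where 13 of 84 genes were called downward (15.5%). This call was lost without any 1 of 5 libraries, all but Igll1-/- replicate 1, with edgeR adjusted p-values of 0.0867 to 0.201, and the value was −2.52 without Igll1-/- replicate 1 and −1.06 without Igll1-/- replicate 2. The difference of wild-type B-1a from B-2 cells did not pass the test (log2 fold change 0.89, edgeR adjusted p = 0.306, 3.57% called). By reads IGKV7-33 held 1.43% and 1.92%, 0.145% and 0.0539%, and 0.540% and 0.617%. Heavy and light chains were sequenced apart, so which *Igh* rearrangement an IGKV7-33 chain was paired with was not measured.

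**Figure D5:**
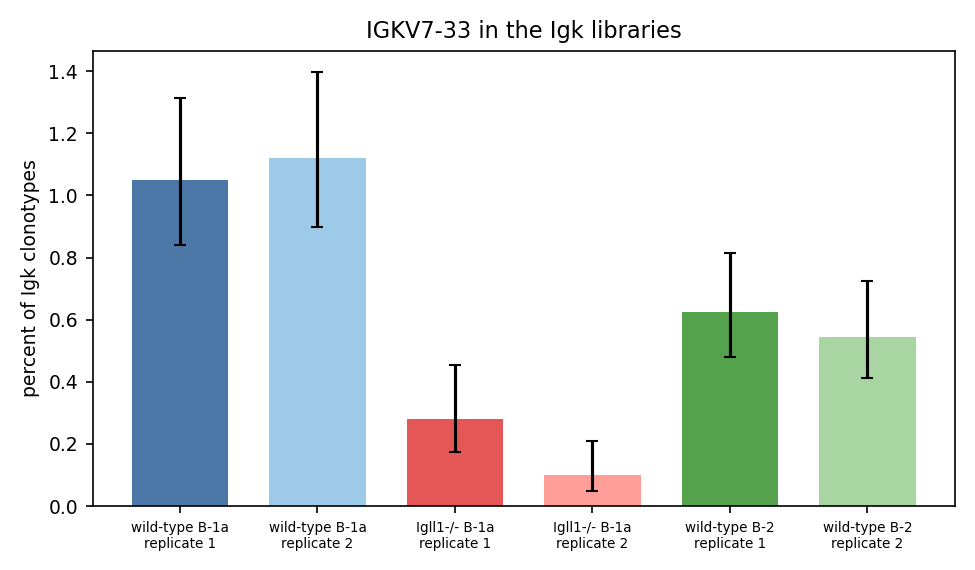
IGKV7-33 as a percent of *Igk* clonotypes in the 6 *Igk* libraries, with 95% Wilson intervals. Both Igll1-/- B-1a libraries, at 0.281% and 0.101%, lie below both wild-type B-1a libraries, at 1.05% and 1.12%, and below both B-2 libraries.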

How the data were processed

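Rearranged *Igh* and *Igk* genes were amplified by the authors from genomic DNA of sorted cells with framework 3 and J primers, and products of 120 to 280 bp (*Igh*) or 100 to 280 bp (*Igk*) were kept. The authors assigned V, D and J genes with IMGT/HighV-QUEST and deposited 1 table per library with the read count of each clonotype and its percent identity to the germline V segment, as recorded in the file headers. Versions and the genome build are not given in the sources used here. No reads were pooled between replicates.

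Clonotypes, not reads, were counted per V gene. Those listed with several V genes (14.3% to 21.3%) entered the totals only. V genes were tested if 2 or more libraries held 10 or more of their clonotypes, with edgeR 4.0.16 (quasi-likelihood, R 4.3.3), with the number of clonotypes as library size and Benjamini-Hochberg adjustment over all V genes at 0.05. Use of a segment was tested in the same way with 2 columns per library, clonotypes with and without the segment, the library as a block and the column totals as offset. The log2 values of these tests are therefore log2 odds ratios, not log2 ratios of shares. Single shares were compared by exact permutation. DESeq2 1.42.0 and the other alternatives are given at the end. The tests were also run on simulated counts with a set spread and set changes, which cannot show how they behave on these libraries. The genes, the segments and the lists were chosen with earlier results of these data known. Named beside the 2 genes are their family, IGHV11-2, IGHV12-3, IGHV5-2, IGKV7-33, the 3 nearest V genes by level and by IGHJ profile, the 5 largest clonotypes of a library and those found in all 4, of which a selection is given. IGHV5-2, a V gene of fetal-type repertoires on that list, had 0.390% and 0.203% of wild-type and 0.210% and 0.423% of Igll1-/- clonotypes. The RefSeq tables of GRCm38.p6 served for neighbouring gene names only.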

Additional observations from a re-analysis of the deposited data

Results flagged for a closer look

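The use of IGHJ1 by IGHV7-3, set against its library, was higher in Igll1-/- than in wild-type cells by 1.44 on the log2 scale in the test of the difference itself (edgeR adjusted p = 0.0118), with IGHJ1 shares of 26.5% and 28.9% against 17.4% and 16.4%. The call was lost with totals without IGHV11-2 and IGHV12-3 (1.11, edgeR adjusted p = 0.399), as a plain ratio within the gene (0.91, edgeR adjusted p = 0.928) and without wild-type replicate 1 (1.81, edgeR adjusted p = 0.971) or replicate 2 (1.07, edgeR adjusted p = 0.961). With near-identical clonotypes merged the IGHJ1 shares were 22.8% and 22.3% in Igll1-/- against 17.3% and 16.7% in wild-type libraries, a smaller rise. The call was kept there, at 0.87 (edgeR adjusted p = 0.00237). With 2 libraries per group, no single library could be tested for standing apart.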

How the results depend on the processing

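Of 164 values under alternatives, 114 kept their direction and their side of the threshold or, without a test, moved by less than the spread between replicates. The choices for the differences in segment use between genotypes, the totals without IGHV11-2 and IGHV12-3, and leaving out CDR3s of another V gene were added after seeing the data. With at least 10 reads no IGHV7-1 clonotype remained, so that alternative gave no value, and without the filter its log2 fold change was 0.18 (edgeR adjusted p = 0.944). The cause of the changes below was not tested.

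With near-identical clonotypes merged, the IGHV7-3 level difference was −0.040. The count of 0 called V genes became 1 by reads, with DESeq2 and without CDR3s of another V gene, 3 with at least 10 reads or among unproductive clonotypes, and 0 to 6 when each library was left out in turn, with 1 without wild-type replicate 1, 3 without Igll1-/- replicate 1 and 6 without Igll1-/- replicate 2. The IGHV7-1 difference, 0.00089 percentage points, was −0.0118 among unproductive clonotypes and −0.0045 to 0.0062 with a library left out. IGHV7-3 with IGHJ1 as a V-J combination passed with at least 10 reads (2.07, edgeR adjusted p = 0.0121), and with IGHJ4 it took values from −0.24 to 0.068 with a library left out, around a value of −0.076, being 0.053 without wild-type replicate 2 and 0.068 without Igll1-/- replicate 1.

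IGHJ1 use of IGHV7-3 against its library was −0.020 by reads, and passed with merged clonotypes (0.89, edgeR adjusted p = 0.00026), with totals without IGHV11-2 and IGHV12-3 (1.15, edgeR adjusted p = 0.00235) and without wild-type replicate 1 (0.92, edgeR adjusted p = 0.0386), within a range of 0.47 to 1.15 over the libraries left out. Its difference between genotypes lost the call by reads (3.79), with at least 2 reads (2.02), over all clonotypes (1.43), among unproductive ones (1.83), with those totals (1.11) and as a plain ratio (0.91), kept it at 0.87 with merged clonotypes (edgeR adjusted p = 0.00237), and ran from 1.07 to 1.81 with a library left out.

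IGHD1-1 use of IGHV7-3 against its library was 0.16 with at least 2 reads, 0.012 merged, 0.031 over all clonotypes, 0.65 among unproductive ones and −0.049 to 0.024 with a library left out. Being 0.0079 without wild-type replicate 1, 0.0089 without wild-type replicate 2 and 0.024 without Igll1-/- replicate 2, it took the other sign there. Its difference between genotypes was −1.23 by reads, −0.14 with at least 2 reads, −0.30 with at least 10 reads, −0.025 without CDR3s of another V gene, −0.54 among unproductive clonotypes and −0.041 to 0.19 with a library left out. The productive share against the library passed when merged (0.69, edgeR adjusted p = 0.0164), without CDR3s of another V gene (0.67, edgeR adjusted p = 0.0388) and without Igll1-/- replicate 1, within 0.42 to 0.78 over the libraries left out, and its difference between genotypes was 0.36 by reads.

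The IGKV7-33 difference between genotypes ran from −3.41 to −1.94 and that against B-2 cells from −2.52 to −1.06 with a library left out, and the latter was −0.93 with at least 10 reads (edgeR adjusted p = 0.329). The labels do not say whether libraries with the same replicate number belong together. Their deviations were correlated at r = 0.17 over 87 V genes, which does not settle it. With the replicate block IGHV7-3 differed by 0.12 in level (edgeR adjusted p = 0.856), 0 V genes were called, the IGHJ1 difference was 1.44 (edgeR adjusted p = 0.00031), and no other call changed. One-read clonotypes, 68.0% to 73.4% of a library, limit all of these counts.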
